A study of Mus musculus with 10 samples.

Results

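The 2 lines compared are mouse embryonic stem cells (mESCs) in which a wild-type transgene replaces a missing histone chaperone or histone: H3.3-rescued cells (H3.3 KO;WT) and DAXX-rescued cells (*Daxx*-/-;WT). Members were taken from the sample labels, as the 2 biological duplicates of each of these lines, which makes 4 of the 10 polyA RNA-Seq libraries. The DAXX-rescued line is of strain 129/SvEv and carries the *Daxx* deletion with a wild-type *Daxx* transgene. The H3.3-rescued line is of mixed strain 129 x C57BL/6J and joins the H3.3 KO genotype with a wild-type H3.3 transgene. Both grew in 2i+LIF, with the GSK3 inhibitor CHIR99021 at 3 µM and the MEK inhibitor PD0325901 at 1 µM, on gelatin without feeder cells. The transgenes, FLAG-tagged mouse DAXX and FLAG-HA-tagged H3.3, came from lentiviral vectors under an EF1 promoter, with puromycin selection, which was stronger for the H3.3 transgenes. The knockout lines were provided by different laboratories, and how many clones each represents is not given. Genotype, strain, clone, selection and source of the lines therefore change together between the groups. All 4 libraries carry a transgene, so the comparison asks which differences are present between the lines when the missing factor of each has been put back.

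DAXX is a chaperone that binds the histone variant H3.3 and, with the remodeler ATRX, deposits it at telomeres, pericentric heterochromatin and repeated elements. The HIRA complex deposits H3.3 mainly at active genes and promoters. Unlike H3.3, whose genes are transcribed through the cell cycle, canonical H3 is made in S phase from clustered histone genes, whose mRNAs usually end in a stem-loop in place of a polyA tail.

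The DAXX-rescued libraries hold 21396585 and 17667514 expected counts and the H3.3-rescued libraries 15902981 and 16615466. Levels are given as CPM, counts scaled to the depth of the library and by median-of-ratios factors, with replicate 1 first, and a log2 fold change is the H3.3-rescued over the DAXX-rescued line with its standard error (SE). Each adjusted p is from edgeR's quasi-likelihood test with the Benjamini-Hochberg adjustment over 13201 genes. A gene was called DE at an adjusted p under 0.05 and a fold change of at least 2. Both lines express embryonic stem cell genes. *Pou5f1* had 1253 and 1092 CPM in the DAXX-rescued and 1312 and 1237 CPM in the H3.3-rescued libraries, *Esrrb* 713 and 667 against 885 and 785 CPM in the same order, and *Zfp42* 769 and 759 against 966 and 790.4 CPM, none of them DE.

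Of the genes tested, 1116 (8.45%) were DE between the rescued lines. In the H3.3-rescued line 677 (5.13%) were higher and 439 (3.33%) lower, so that 60.7% of the DE genes were higher. Both H3.3-rescued libraries lay above both DAXX-rescued libraries for 4649 genes (35.2%) and below both for 4597 (34.8%), and 4559 genes had an unadjusted p under 0.05. With only the 4 libraries of these lines in the fit, 1697 were DE (1040 higher, 657 lower). The count of DE genes depends on single libraries. It was 364 (212 higher, 152 lower) without DAXX-rescued replicate 1, 797 (481 and 316) without DAXX-rescued replicate 2, 424 (302 and 122) without H3.3-rescued replicate 1 and 363 (257 and 106) without H3.3-rescued replicate 2. In these fits the lone library of a line is assumed to vary like the other groups. A set of 242 genes, 175 higher and 67 lower, was called with all libraries and in each of the 4 fits.

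The genes targeted in the lines, the H3.3 chaperones and the DAXX partners separated into a few large differences and many small ones. *H3f3a* (chromosome 1, 180800832 to 180813943 in GRCm38), which encodes H3.3, had 486 and 494 CPM in the DAXX-rescued and 3.62 and 4.36 CPM in the H3.3-rescued libraries (log2 -6.94, SE 0.41, adjusted p = 6.4e-05 from edgeR). *Daxx* (chromosome 17, 33909414 to 33915590) had 206 and 206 CPM in the DAXX-rescued and 62.3 and 59.4 CPM in the H3.3-rescued libraries (log2 -1.76, SE 0.19, adjusted p = 0.00124). In both genes the libraries of a line lay close together and far from those of the other. *H3f3b*, the other H3.3 gene, was measured at 116 and 84.4 CPM in the DAXX-rescued and 204 and 139 CPM in the H3.3-rescued libraries, and the difference was not DE (log2 0.77, SE 0.25, adjusted p = 0.0628). Gene counts do not tell transcripts of a transgene from those of a targeted allele, and in places they go against the genotype labels. *H3f3b* had 509 and 720.1 CPM in the H3.3 KO libraries, more than in any other line, and *Daxx* had 82.6 and 72.9 CPM in the *Daxx*-/- libraries, above both H3.3-rescued libraries. The lines are named by their labels here. Among the chaperones, *Atrx* had 225 and 209 against 319 and 299 CPM and *Hira* 178 and 138 against 113 and 108 CPM in the DAXX-rescued and H3.3-rescued libraries, and neither was DE. *Ubn2*, which encodes a subunit of the HIRA complex, fell from 91.98 and 87.4 to 41.2 and 40.3 CPM (log2 -1.14, SE 0.13, adjusted p = 0.00192). *Sp100*, a component of PML nuclear bodies, where DAXX also resides, was at 0.248 and 0.393 CPM in the DAXX-rescued and 3.24 and 2.61 CPM in the H3.3-rescued libraries (log2 3.17, SE 0.73, adjusted p = 0.0193). The call of *Sp100* was lost without any 1 of the 4 rescued libraries (adjusted p between 0.0711 and 0.148). Of the 18 genes of this list, all tested, 1 was higher and 3 lower (22.2% DE, against 8.45% over all genes), with a median log2 fold change of -0.34, where the median over all genes tested was 0.00. The share is no result about the list, since *Daxx* and *H3f3a* were altered by design and *Sp100* could enter the test only through H3.3 lines.

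**Figure D1:**
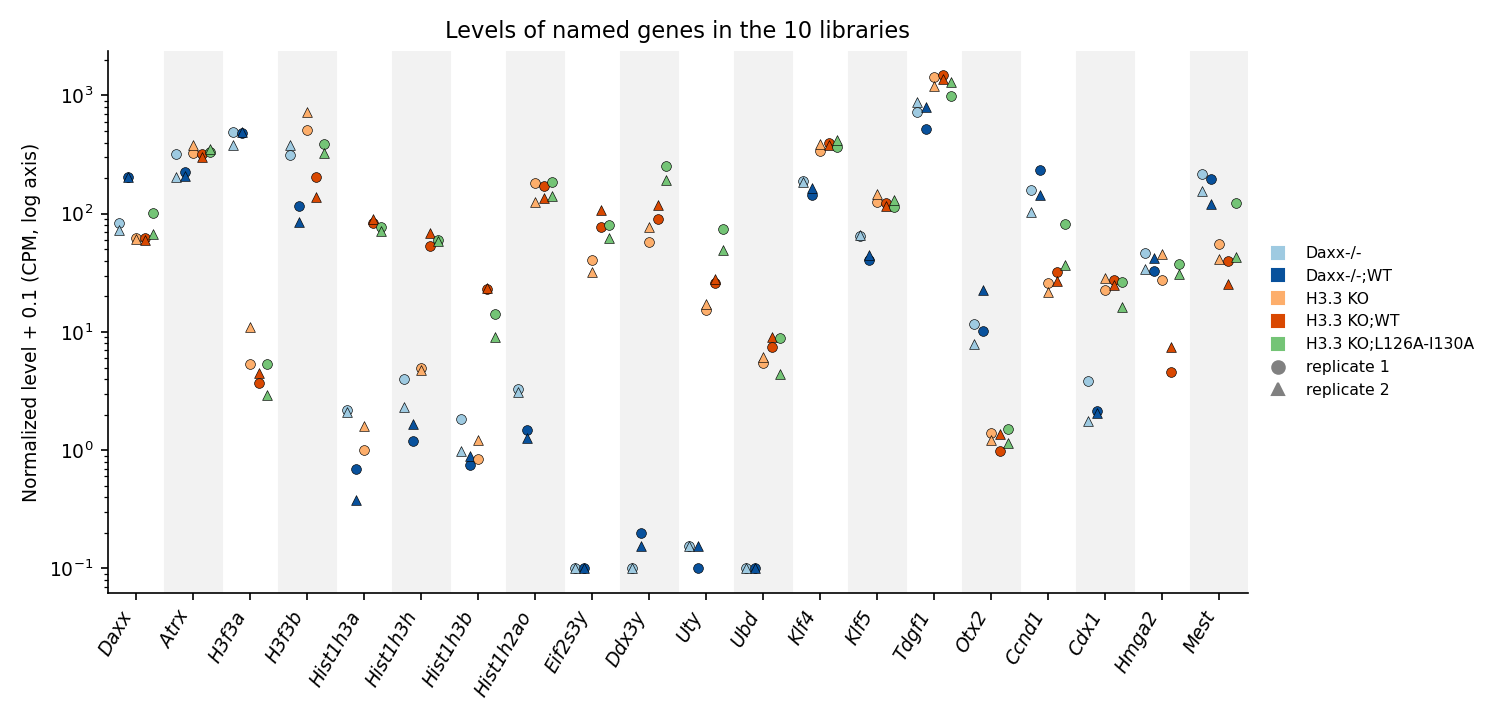
Levels of 20 genes in the 10 libraries (CPM with 0.1 added, log axis), with 1 point for each library and the lines set apart by colour. *Daxx* is high in the DAXX-rescued libraries (206 and 206 CPM), and *Hist1h3a* is high in the H3.3-rescued (83.96 and 90.3 CPM) but not in the H3.3 KO libraries (0.907 and 1.49 CPM).

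Counts of some clustered genes for canonical H3 were higher in the H3.3-rescued line, several of them from levels near 0. Of 12 listed genes 7 were tested, 5 were higher in the H3.3-rescued line and 0 lower (71.4% DE, against 8.45% over all genes), and the median log2 fold change was 5.02 against 0.00 over all genes. *Hist1h3a* had 0.595 and 0.281 CPM in the DAXX-rescued and 83.96 and 90.3 CPM in the H3.3-rescued libraries (log2 7.59, SE 0.31, adjusted p = 1.5e-05 from edgeR). *Hist1h3h* had 1.09 and 1.57 against 53.5 and 68.5 CPM (log2 5.52, SE 0.32, adjusted p = 6.0e-05) and *Hist1h3b* 0.644 and 0.786 against 23.2 and 23.4 CPM (log2 5.02, SE 0.44, adjusted p = 0.000503). For each of these genes the H3.3-rescued libraries lay close to each other and more than 10 times above the DAXX-rescued. *Hist1h3i* rose from 0 and 0.337 to 15.497 and 11.7 CPM and *Hist1h3d* from 0.396 and 0.225 to 4.001 and 5.58 CPM. The others tested, *Hist1h3c* (1.24 and 0.674 against 3.62 and 1.92 CPM) and *Hist2h3b* (0.297 and 0.281 against 0 and 0.523 CPM), were not DE. Their log2 fold changes were 1.52 and -0.11. Without 1 library the value of *Hist2h3b* ran from -5.37 to 0.837, so it gives no direction. *Hist1h3e*, *Hist1h3f* and *Hist1h3g*, which were not tested, stayed under 1 CPM in all 4 libraries. These genes are near copies of each other: between 24.8% and 93.9% of the 50-base stretches of a member also lie in other genes, so reads can be shared out among them. Summed over the 11 H3 genes that the table holds, which sets division among these aside, the level was 5.40 and 4.38 CPM in the DAXX-rescued and 186 and 203 CPM in the H3.3-rescued libraries. None of the stretches lies in *H3f3a* or *H3f3b*. The sequence of the H3.3 transgene and the read length are not given. Whether transgene reads were assigned to the clustered H3 genes was not tested. *Hist1h3a* was also high with the other H3.3 transgene, L126A-I130A (76.9 and 71.1 CPM), and low in H3.3 KO cells (0.907 and 1.49 CPM).

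Promoters of 2 H3 genes that were higher and of 1 that was not DE, picked after their values were seen, are shown side by side. Promoters (RefSeq, GRCm38.p6, each with 50 bases after the start site) were found for 28 of 34 genes searched, and not for *Hist1h3a*. The letters TATAAA and CCAAT were looked for on both strands and are in capitals. TATAAA occurs in 13.6% of 32851 mouse promoters of this length, CCAAT in 37.4% and both in 5.31%. *Hist1h3b* (chr13:23752095-23752394, strand plus) and *Hist1h3h* (chr13:21717378-21717677, strand plus), both higher in the H3.3-rescued line, each hold 1 TATAAA and 2 CCAAT. *Hist1h3c* (chr13:23745472-23745771, strand minus), which was not DE, holds 0 TATAAA and 5 CCAAT. Not shown are *Hist1h3d*, with 3 TATAAA, and *Hist1h3i*, with 1, both higher, and *Hist2h3b*, with 0, not DE. Of other histone genes, *Hist1h2ao*, which was higher, holds 0 TATAAA and *H3f3b*, which was not DE, holds 1. The matches describe the letters only.
Hist1h3b: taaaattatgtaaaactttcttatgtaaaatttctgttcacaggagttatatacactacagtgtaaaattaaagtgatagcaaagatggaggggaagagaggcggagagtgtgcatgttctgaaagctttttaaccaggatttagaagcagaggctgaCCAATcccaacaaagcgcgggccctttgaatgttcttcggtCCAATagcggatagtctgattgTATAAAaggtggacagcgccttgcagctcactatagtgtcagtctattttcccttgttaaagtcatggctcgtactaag
Hist1h3h: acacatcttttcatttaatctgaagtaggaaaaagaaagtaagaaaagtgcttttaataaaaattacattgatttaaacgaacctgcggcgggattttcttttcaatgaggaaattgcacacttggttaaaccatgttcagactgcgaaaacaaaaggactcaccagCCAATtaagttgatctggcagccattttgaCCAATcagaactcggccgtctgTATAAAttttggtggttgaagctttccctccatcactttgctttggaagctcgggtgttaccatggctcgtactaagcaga
Hist1h3c: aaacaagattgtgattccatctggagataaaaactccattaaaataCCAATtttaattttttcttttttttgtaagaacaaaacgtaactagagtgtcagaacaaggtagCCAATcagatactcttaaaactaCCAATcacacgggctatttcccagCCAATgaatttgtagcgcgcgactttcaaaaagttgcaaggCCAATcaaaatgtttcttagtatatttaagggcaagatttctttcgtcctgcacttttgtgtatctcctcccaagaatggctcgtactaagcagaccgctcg

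An H2A gene of the clusters was also among the largest differences. *Hist1h2ao* rose from 1.39 and 1.18 CPM in the DAXX-rescued to 172 and 137 CPM in the H3.3-rescued libraries (log2 6.90, SE 0.30, adjusted p = 1.5e-05 from edgeR), and 93.5% of its stretches are shared with other genes. Summed over 21 genes, which are *Hist1h2ao* and those of the 24 genes sharing a stretch with it that the deposited table holds, the level was 137 and 148 CPM in the DAXX-rescued and 563 and 538 CPM in the H3.3-rescued libraries, a smaller step than that of the gene. The sum includes *H2afx* (63.4 and 86.9 against 241 and 275 CPM) and *H2afj* (65.3 and 54.8 against 45.03 and 42.6 CPM), which lie outside the clusters. In contrast to *Hist1h3a*, *Hist1h2ao* was already high in the H3.3 KO libraries, at 181 and 125 CPM, where *Hist1h3a* had 0.907 and 1.49 CPM.

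Several genes of chromosome Y were at or near 0 in the DAXX-rescued line and expressed in the H3.3-rescued line. *Eif2s3y*, a subunit of a translation initiation factor, had 0 counts in both DAXX-rescued libraries and 77.04 and 108 CPM in the H3.3-rescued libraries, at least 584-fold higher (floor of 3 counts per library). *Ddx3y*, an RNA helicase, had 0.0991 and 0.0561 CPM in the DAXX-rescued and 90.1 and 118 CPM in the H3.3-rescued libraries, a ratio of 1324 (95% interval 453 to 6425). *Uty*, a homologue of an H3K27 demethylase, had 0 and 0.0561 against 26.1 and 27.9 CPM, a ratio of 1027 (95% interval 184 to 40610). Intervals and floors cover counting error only. *Zfy1* was at 0 in the DAXX-rescued libraries and at 3.18 and 12.02 CPM in the H3.3-rescued, at least 47.9-fold higher, and shares 42.9% of its stretches with other genes. *Kdm5d*, an H3K4 demethylase, was at 0 against 1.59 and 4.71 CPM, at least 19.8-fold higher. *Ube1y1* was detected in both lines and had 3.17 and 2.25 against 37.9 and 73.6 CPM. The other genes of chromosome Y that were tested, 7 of 8, were at or near 0 in all 4 libraries of the DAXX lines and could enter the test only through H3.3 lines, so their number is no support for a difference. Their X-linked homologues showed no such step: *Eif2s3x* had 527 and 485 against 583 and 470.4 CPM (log2 0.06), and *Ddx3x*, *Kdm5c* and *Kdm6a* had log2 fold changes of 0.10, -0.56 and -0.36, none DE. Of 10 X and Y markers listed 8 were tested, 4 of them the X-linked genes above and 4 the Y-linked genes *Eif2s3y*, *Ddx3y*, *Uty* and *Kdm5d*, which were higher, so no median over the list is given. *Kdm5d* lost its call without DAXX-rescued replicate 1 or H3.3-rescued replicate 2 (adjusted p = 0.0677 and 0.0642).

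Differences also ran along segments of chromosomes. Genes from the start of chromosome 9 to base 39604403 (150 tested) had a median log2 fold change of 0.85, or 1.80-fold, with 93.3% above 0. Of them 43 were higher and 0 lower (28.7% DE, against 8.45% over all genes). The other 596 genes of chromosome 9 had a median of -0.20, with 12 higher and 33 lower (7.55% DE). On chromosome 14, genes from base 30000001 to the last gene (356 tested) had a median of 0.84, or 1.79-fold, with 92.7% above 0. Of them 110 were higher and 4 lower (32.0% DE). The 81 genes before them had a median of -0.11, with 8 higher and 6 lower (17.3% DE), also above the share of all genes. The segments were chosen after their values were seen, as runs of at least 3 windows of 10 Mb with a median of at least 0.5 in size, so that a lower limit on each window was set by the choice. Window medians lay between 0.70 and 1.10 in the 4 windows on chromosome 9 and between 0.66 and 1.08 in the 8 windows on chromosome 14, where 2 windows with fewer than 8 genes were passed over. Of 258 windows with at least 8 genes, 31 passed that size, 12 of them in these segments.

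The values of single libraries are given as a description, since the fold changes between the same libraries chose the segments. Relative to the mean of the 10 libraries, the median gene of the chromosome 9 segment lay at -0.45 and -0.41 in the DAXX-rescued and 0.29 and 0.32 in the H3.3-rescued libraries. On chromosome 14 the corresponding medians were -0.48 and -0.44 against 0.31 and 0.29. The knockout lines, whose genotypes the rescued lines carry beside a transgene and whose values did not enter the choice, showed a like difference, with medians of 0.78 on chromosome 9 and 0.73 on chromosome 14. Together with chromosome Y, the segments hold 514 genes (3.89% of those tested), 161 of the genes that were higher (23.8%) and 4 of those that were lower. These shares were set in part by the choice of the segments and by the filter on chromosome Y, and are a description only. With these genes left out of the fit and of the scaling, an alternative chosen after seeing the data, 901 genes were DE, 525 higher and 376 lower. *Klf5*, *Spry2*, *Mphosph8*, *Setdb2* and *Rec8* lie in the chromosome 14 segment and were higher in the H3.3-rescued line, and *Otx2*, which was lower, lies there too. Strain, clone history and genotype cannot be told apart for these segments.

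**Figure D2:**
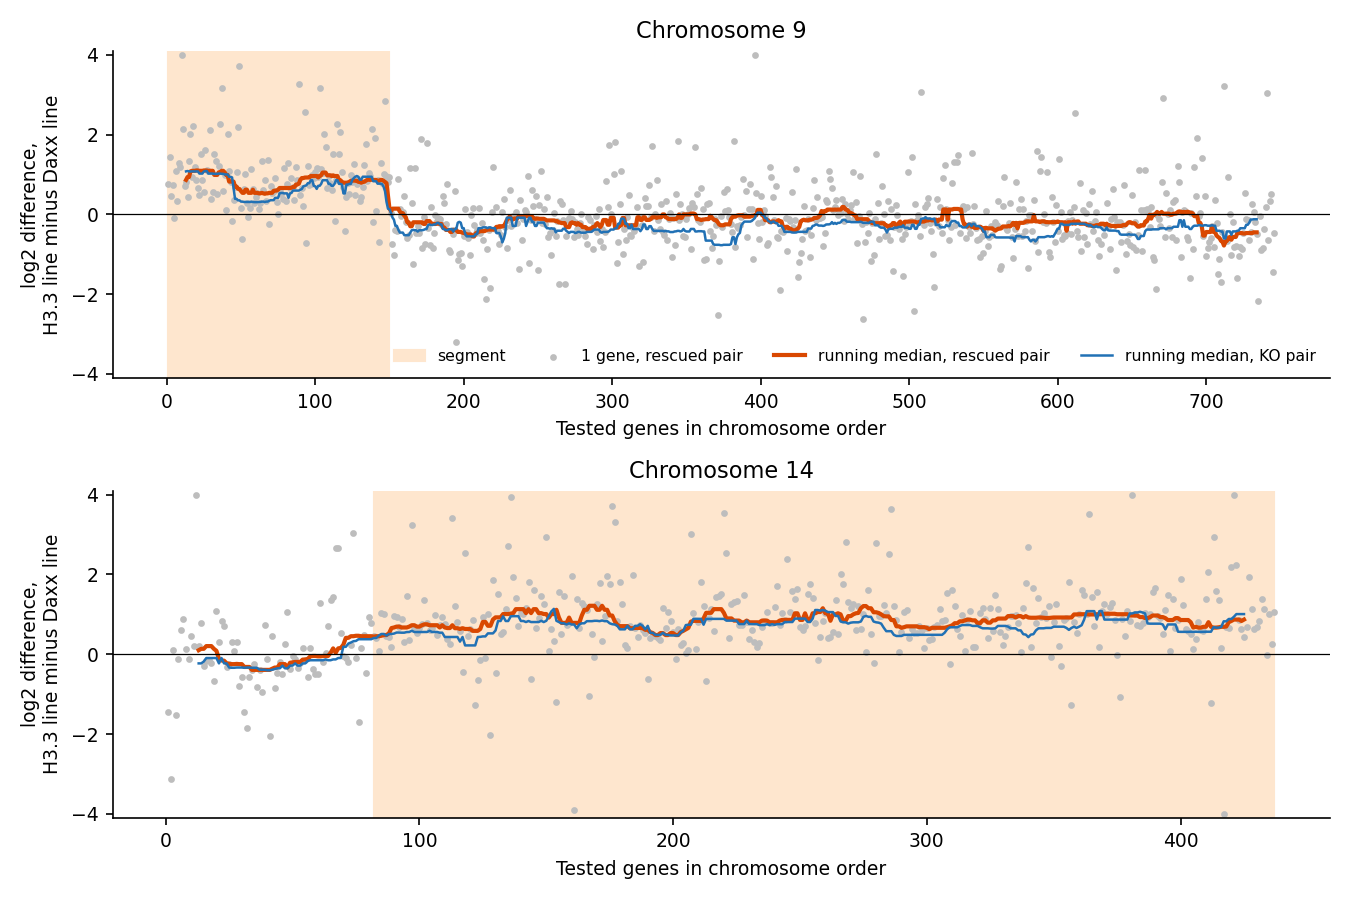
Fitted log2 fold change of the genes tested on chromosomes 9 and 14, in their order along the chromosome, with a running median over 25 genes, the segments shaded and points beyond 4 in size drawn at 4. The running median steps from the segment of chromosome 9 (median 0.85) to the rest (-0.20), and on chromosome 14 from the first genes (-0.11) to the segment (0.84).

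By their medians, other chromosomes moved less than the segments, although some single windows elsewhere were of like size. The window from base 100000001 of chromosome 10 had a median of 1.09 (6 higher and 0 lower of 14 genes). From base 20000001 of chromosome 13 it was 0.74 (11 and 0 of 58). In the other direction, from base 70000001 of chromosome 6 it was -0.60 (1 and 5 of 34). Where chromosome medians were highest or lowest, the share of DE genes lay mostly at or under the 8.45% of all genes. Medians were 0.32 on chromosome 13 (34 higher and 2 lower of 481 tested, 7.48% DE), 0.29 on chromosome 12 (35 and 3 of 455, 8.35%), 0.26 on chromosome 18 (23 and 6 of 333, 8.71%) and 0.24 on chromosome 10 (34 and 7 of 620, 6.61%). The lowest medians were -0.28 on chromosome 8 (8 and 29 of 692, 5.35%) and -0.23 on chromosomes 15 (14 and 29 of 512, 8.40%) and 19 (4 and 15 of 445, 4.27%). The X chromosome was at -0.16, with 19 higher and 24 lower of 499 (8.62%). Shares were larger on chromosomes 17 (10.6%, median 0.13) and 6 (9.70%, median -0.20).

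**Figure D3:**
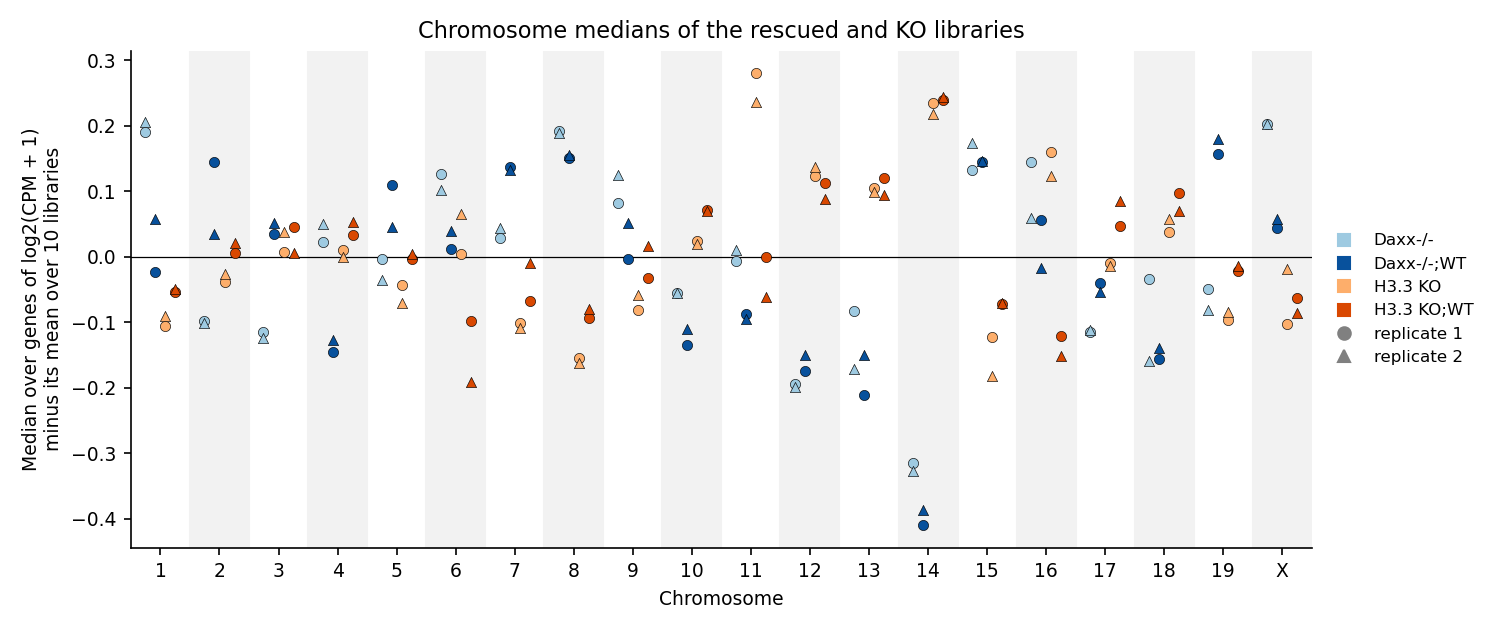
Median over the genes of each chromosome of log2(CPM + 1) minus the mean over the 10 libraries, with 1 point for each of 8 libraries of the rescued and KO lines. Chromosome 14 sets each library of the H3.3 lines above each of the DAXX lines, with a fitted median of 0.73 for the rescued lines and 0.59 for the KO lines. Several other chromosomes also separate the libraries of the lines, such as 12 in the same direction and 8 in the reverse.

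A few genes were expressed in 1 rescued line and at or near 0 in the other. Of the genes at 5 CPM or more in both libraries of a line and at most 3 counts in each library of the other, 7 were present in the H3.3-rescued line, 3 of them on chromosome Y, and 3 in the DAXX-rescued line. *Ubd*, a ubiquitin-like modifier, had 0 counts in the DAXX-rescued and 7.37 and 8.89 CPM in the H3.3-rescued libraries, at least 51.3-fold higher, and shares no 50-base stretch with another gene. *Apoa2*, an apolipoprotein of high-density lipoprotein, had 0.0496 and 0.0561 against 7.49 and 7.73 CPM, a ratio of 145 (95% interval 39.6 to 1201). *Serpina3m*, a serine protease inhibitor, had 0.0991 and 0 against 14.2 and 18.3 CPM, a ratio of 310.1 (95% interval 85.4 to 2567). It shares 19.07% of its stretches with 4 other *Serpina3* genes, and their sum with it was 0.297 and 0.112 against 15.7 and 20.9 CPM, a smaller ratio. *Rangrf*, which shares 32.0% of its stretches with other genes, was at 0 against 51.3 and 45.8 CPM and *Gm4535* had 48.8 and 40.5 against 0.191 and 0.116 CPM, and their sum was nearly level, at 48.8 and 40.5 against 51.4 and 45.9 CPM. *Tagap* had 7.24 and 10.1 against 0 and 0 CPM, at least 47.5-fold lower in the H3.3-rescued line, and its paralog *Tagap1*, the more abundant in both lines, had 16.7 and 18.4 against 44.8 and 48.9 CPM. Summed, *Tagap* and *Tagap1* had 23.9 and 28.5 against 44.8 and 48.9 CPM, and 47.6% of *Tagap* stretches are shared. *Slfn10-ps*, a Schlafen pseudogene, was at 6.74 and 8.53 against 0.191 and 0 CPM, a ratio of 83.3 (95% interval 28.2 to 406) in favour of the DAXX-rescued line. It shares stretches with *Slfn8*, which was also lower, and with *Slfn9*, at 45.7 and 70.1 against 11.2 and 22.1 CPM.

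Other genes named for the size of their change had a mean of at least 5 CPM in the higher line, with predicted genes left out. *Gem*, a small GTP-binding protein, rose from 0.248 and 0.225 to 23.6 and 25.2 CPM (log2 6.64, SE 0.43, adjusted p = 0.000106 from edgeR). *Trh*, which encodes the precursor of thyrotropin-releasing hormone, was at 509 and 211 CPM in the DAXX-rescued and 16.8 and 9.82 CPM in the H3.3-rescued libraries (log2 -4.76, SE 1.04, adjusted p = 0.0165). The lines do not overlap for *Trh*, although the DAXX-rescued replicates differ by more than 2 times. *Slfn8*, a Schlafen gene, fell from 12.04 and 20.3 to 0.381 and 0.755 CPM (log2 -4.80, SE 0.46, adjusted p = 0.000708), and the sum of 3 Schlafen genes went from 64.5 and 98.9 to 11.8 and 22.9 CPM. *St8sia1*, a ganglioside sialyltransferase, was at 23.3 and 42.8 against 1.78 and 2.61 CPM (log2 -3.90) and *Kbtbd11* at 12.7 and 18.7 against 0.572 and 0.871 CPM (log2 -4.43). *Slit3*, a secreted ligand of Robo receptors, *Sned1*, *Cttnbp2* and *Calb2*, which encodes calretinin, had log2 fold changes of -3.85, -3.66, -3.50 and -3.41. Without 1 library these ran from -4.32 to -3.17, -4.67 to -3.1, -4.07 to -3.08 and -4.04 to -2.26 in the same order. *Trh* kept its call only without DAXX-rescued replicate 2 (adjusted p up to 0.129 without the others) and *Calb2* kept its call only without DAXX-rescued replicate 1 (adjusted p up to 0.110 without the others). *St8sia1* and *Sned1* lost their calls without H3.3-rescued replicate 1 (adjusted p = 0.0507 and 0.0522) and *Slit3* and *Cttnbp2* lost their calls without H3.3-rescued replicate 2 (adjusted p = 0.0529 and 0.0509).

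Naive pluripotency genes were higher in the H3.3-rescued line where they differed. Of 21 core and naive genes tested (22 listed), 4 were higher and 0 lower (19.05% DE, against 8.45% over all genes), with a median log2 fold change of 0.20 (0.00 over all genes). *Klf4*, a core factor of the naive network, had 144 and 166 CPM in the DAXX-rescued and 393 and 379 CPM in the H3.3-rescued libraries (log2 1.31, SE 0.14, adjusted p = 0.00124 from edgeR). *Klf5*, its relative, had 40.3 and 44.6 against 123 and 117 CPM (log2 1.49, SE 0.14, adjusted p = 0.000708), *Tdgf1*, a Nodal co-receptor, 522 and 805 against 1479 and 1384 CPM (log2 1.11, SE 0.23, adjusted p = 0.0124), and *Dppa3* 6.79 and 11.2 against 29.8 and 33.2 CPM (log2 1.81, SE 0.49, adjusted p = 0.0350). In each of these the H3.3-rescued libraries were above both DAXX-rescued. *Nanog* (516 and 601 against 913 and 952 CPM, log2 0.74) and *Sox2* (296 and 298 against 515 and 515 CPM, log2 0.79) stayed under 2-fold. The summed level was 7903 and 8648 CPM in the DAXX-rescued and 11164 and 10696 CPM in the H3.3-rescued libraries, with *Dppa5a* the most abundant. Of 14 formative and primed genes tested (18 listed), 0 were higher and 1 lower (7.14% DE), with a median of -0.14. That gene was *Otx2*, a homeobox factor of the exit from the naive state, at 10.2 and 22.6 CPM in the DAXX-rescued and 0.889 and 1.28 CPM in the H3.3-rescued libraries (log2 -3.91, SE 0.48, adjusted p = 0.00225). The call of *Dppa3* was lost without any 1 of the 4 rescued libraries (adjusted p between 0.0698 and 0.215). *Tdgf1* kept its call only without DAXX-rescued replicate 2 (adjusted p up to 0.0943 without the others).

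Markers of other cell types included genes higher and genes lower. Over all genes tested, 5.13% were higher and 3.33% lower. In bulk samples fewer cells of a type and less RNA per cell cannot be told apart. Of 20 primitive endoderm markers 14 were tested, 2 higher and 2 lower (28.6% DE, against 8.45% over all genes, median 0.45), and their sum was 859 and 1040 CPM in the DAXX-rescued and 1113 and 1420 CPM in the H3.3-rescued libraries, with *Lamc1* the most abundant. *Lama1*, a basement membrane laminin, was higher (24.7 and 49.3 against 147 and 208 CPM, log2 2.26, SE 0.48, adjusted p = 0.0152 from edgeR), as was *Sparc* (205 and 259.8 against 417 and 514 CPM, log2 1.00). *Lrp2*, the endocytic receptor megalin, fell from 25.8 and 19.087 to 6.10 and 6.33 CPM (log2 -1.85, SE 0.26, adjusted p = 0.00367), and *Col4a1* was lower (46.8 and 51.9 against 17.02 and 22.7 CPM, log2 -1.31). The defining factors were scarce, with *Gata4* at 2.03 and 3.26 against 4.51 and 3.66 CPM and *Gata6* at 0.248 and 0.505 against 0.889 and 1.68 CPM. None of the 20 markers was at 0 in all 4 libraries, and their part in the result was not tested. The call of *Col4a1* was lost without any 1 of the 4 rescued libraries (adjusted p between 0.0690 and 0.127). *Lama1* kept its call only without DAXX-rescued replicate 2 (adjusted p up to 0.119 without the others). *Sparc* lost its call without DAXX-rescued replicate 1 or H3.3-rescued replicate 2 (adjusted p = 0.0809 and 0.0756).

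Of 15 trophectoderm markers 8 were tested, 1 higher and 2 lower (37.5% DE, against 8.45% over all genes), with a median log2 fold change of -1.15. They summed to 62.7 and 113 CPM in the DAXX-rescued and 54.2 and 57.7 CPM in the H3.3-rescued libraries, with *Krt8*, a keratin, the most abundant, and none was at 0 in all 4. *Eomes*, a T-box factor, had 20.02 and 23.6 CPM in the DAXX-rescued and 7.94 and 6.45 CPM in the H3.3-rescued libraries (log2 -1.60, SE 0.27, adjusted p = 0.00639 from edgeR) and *Krt8* 27.9 and 55.4 against 18.9 and 12.7 CPM (log2 -1.40). *Esx1*, an X-linked homeobox gene, had 2.82 and 3.71 against 13.02 and 21.7 CPM (log2 2.41). Of 18 fibroblast and mesenchyme markers 6 were tested, 1 higher and 2 lower (50% DE, median -0.55), with a sum of 659 and 356 CPM in the DAXX-rescued and 145 and 114 CPM in the H3.3-rescued libraries. Most of that sum was *Vim*, an intermediate filament gene, at 619 and 314 against 122 and 84.6 CPM (log2 -2.17, SE 0.60, adjusted p = 0.0383), while *Col1a1* went the other way (0.496 and 0.954 against 3.37 and 4.41 CPM, log2 2.42) and *Col5a1* was lower (log2 -1.28). *Lum* was at 0 in all 4 libraries. Of 14 neural markers 6 were tested and 0 were DE (median 0.22), with *Tubb3* the most abundant at 215 and 86.9 against 75.3 and 62.6 CPM, *Nes* at 35.4 and 37.7 against 69.4 and 68.95 CPM, a sum of 264 and 135 CPM in the DAXX-rescued and 157 and 147 CPM in the H3.3-rescued libraries, and *Neurog2* and *Fabp7* at 0. The part of these 3 marker lists in the result was not tested. The calls of *Esx1*, *Vim* and *Col5a1* were lost without any 1 of the 4 rescued libraries (adjusted p between 0.0513 and 0.251). *Krt8* kept its call only without DAXX-rescued replicate 1 (adjusted p up to 0.227 without the others) and *Col1a1* kept its call only without DAXX-rescued replicate 2 (adjusted p up to 0.145 without the others). *Eomes* lost its call without H3.3-rescued replicate 2 (adjusted p = 0.0687). *Krt8* (adjusted p = 0.053) and *Col5a1* (0.0608) also lost their calls with library size alone, and *Tubb3* was DE when only the compared lines were fitted (0.0347).

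**Figure D4:**
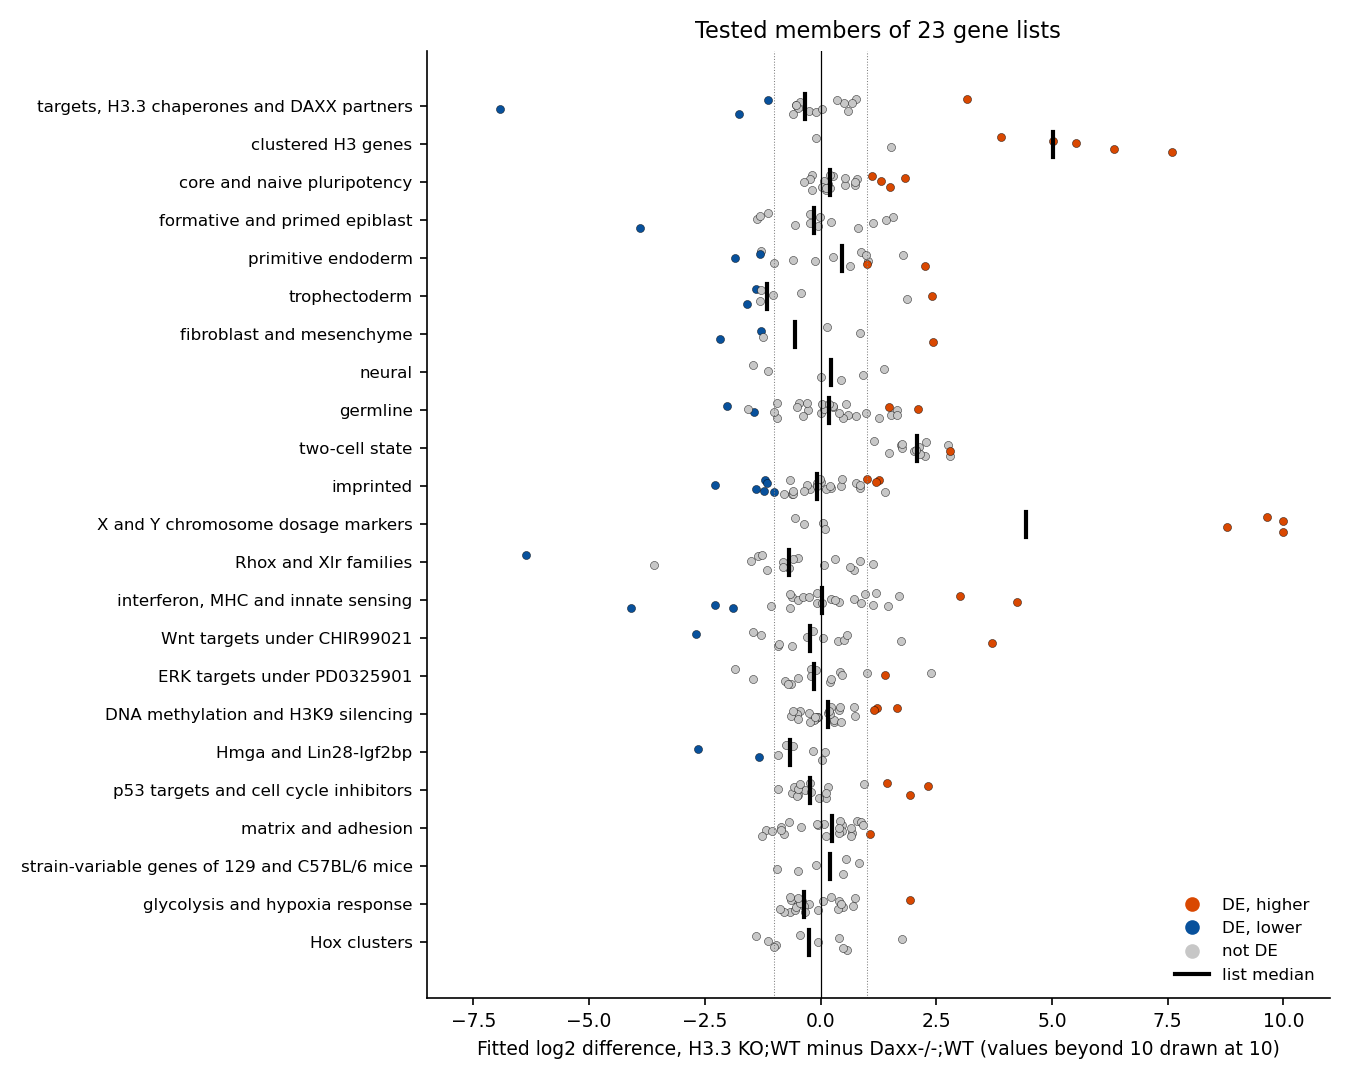
Fitted log2 fold change of the tested members of 23 gene lists, with 1 point for each gene, its call by colour, the median of each list, and points beyond 10 drawn at 10. The clustered H3 genes have a median of 5.02, with 5 of 7 DE. The X and Y markers fall in separate groups, 4 X-linked genes between -0.56 and 0.10 and 4 Y-linked genes far above, and no gene lies at the median drawn for them. The 2-cell genes have a median of 2.09, and most other lists centre near the all-gene median of 0.00.

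DNA methylation silences many germline genes in somatic cells. Of 29 tested (30 listed), 2 were higher and 2 lower (13.8% DE, against 8.45% over all genes), with a median of 0.18. *Hormad1*, of the meiotic chromosome axis, fell from 13.97 and 19.2 to 2.99 and 5.17 CPM (log2 -2.02, SE 0.38, adjusted p = 0.00919 from edgeR) and *Tex15* from 26.6 and 25.6 to 10.6 and 8.54 CPM (log2 -1.45, SE 0.19, adjusted p = 0.00292). *Brdt*, a testis bromodomain protein, and *Rec8*, a meiotic cohesin subunit, were higher, by log2 2.11 and 1.48. Genes of the 2-cell state had a median log2 fold change of 2.09, but of 14 tested (26 listed) only 1 was DE (7.14%). It was *Dub1*, a deubiquitinating enzyme, at 4.71 and 2.75 CPM in the DAXX-rescued and 20.6 and 31.5 CPM in the H3.3-rescued libraries (log2 2.80, SE 0.44, adjusted p = 0.00526). The sum of the 2-cell list was 151 and 26.7 CPM in the DAXX-rescued and 300.3 and 448 CPM in the H3.3-rescued libraries, led by *Gm4340*, so the DAXX-rescued replicates differed from each other by more than 5 times. The call of *Rec8* was lost without any 1 of the 4 rescued libraries (adjusted p between 0.0532 and 0.209). *Brdt* kept its call only without DAXX-rescued replicate 2 (adjusted p up to 0.171 without the others). *Hormad1* lost its call without H3.3-rescued replicate 1 (adjusted p = 0.0808).

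Imprinted genes, which are expressed from 1 parental allele, included genes of either side. Of 30 tested (44 listed), 3 were higher and 6 lower (30% DE, against 8.45% over all genes), with a median of -0.08 (0.00 over all genes). *Mest*, a paternally expressed gene, was at 196 and 121 CPM in the DAXX-rescued and 40.1 and 25.5 CPM in the H3.3-rescued libraries (log2 -2.28, SE 0.48, adjusted p = 0.0140 from edgeR), and *Snrpn*, of the Prader-Willi region, at 104 and 88.9 against 43.95 and 39.2 CPM (log2 -1.21, SE 0.27, adjusted p = 0.0175). *Peg10* was lower as well (log2 -1.39). *Plagl1*, a zinc finger gene, was higher (32.1 and 29.7 against 81.4 and 66.3 CPM, log2 1.26, SE 0.33, adjusted p = 0.0301). Of 17 *Rhox* and *Xlr* genes tested (24 listed), X-linked reproductive homeobox and lymphocyte-regulated families, 0 were higher and 1 lower (5.88% DE), with a median of -0.68. That gene was *Rhox4e*, with 7 and 15 counts in the DAXX-rescued and 0 in both H3.3-rescued libraries, at least 3.26-fold lower. *Rhox4e* could enter the test only through the *Daxx*-/- libraries (6.49 and 9.32 CPM), being under 1 CPM in both rescued lines. The call of *Plagl1* was lost without any 1 of the 4 rescued libraries (adjusted p between 0.0940 and 0.154). *Mest* and *Snrpn* kept their calls only without DAXX-rescued replicate 2 (adjusted p up to 0.116 and 0.126 without the others), *Peg10* kept its call only without H3.3-rescued replicate 1 (adjusted p up to 0.161 without the others) and *Rhox4e* kept its call only without DAXX-rescued replicate 1 (adjusted p up to 0.0954 without the others).

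Genes of interferon response, antigen presentation and innate sensing went both ways, with 2 higher and 3 lower of 25 tested (40 listed), which is 20% against 8.45% over all genes, and a median of 0.04. *Tlr2*, a receptor for bacterial lipoproteins, had 3.67 and 3.20 CPM in the DAXX-rescued and 29.8 and 25.6 CPM in the H3.3-rescued libraries (log2 3.01, SE 0.24, adjusted p = 0.000412 from edgeR). *Ifitm1*, an interferon-induced membrane protein, had 176 and 186 against 49.8 and 48.4 CPM (log2 -1.88, SE 0.25, adjusted p = 0.00314). These genes moved in opposite directions with no overlap between the lines. *Ifit2* (log2 -4.09) and *Oas1a* (log2 -2.28), both induced by interferon, were also lower, and *H2-T10*, a nonclassical MHC gene, was higher (0.0991 and 0 against 0.953 and 1.28 CPM). *H2-T10* could enter the test only through H3.3 lines and *Ifit2* only through DAXX lines. The share of 20% was thus set in part by the filter and is no result about the list. The calls of *Oas1a* and *H2-T10* were lost without any 1 of the 4 rescued libraries (adjusted p between 0.0543 and 0.139). *Ifit2* kept its call only without DAXX-rescued replicate 2 (adjusted p up to 0.116 without the others).

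Targets of the pathways that the 2i inhibitors act on held 3 DE genes, where 8.45% of all genes were DE. Of 14 Wnt targets tested (17 listed), 1 was higher and 1 lower (14.3% DE, median -0.23). *Cdx1*, a homeobox gene that Wnt signalling induces, rose from 2.03 and 1.96 to 27.4 and 24.8 CPM (log2 3.70, SE 0.40, adjusted p = 0.00144 from edgeR). *Ccnd1*, which encodes cyclin D1, fell from 234 and 144 to 31.8 and 26.7 CPM (log2 -2.69, SE 0.40, adjusted p = 0.00437). *Axin2*, a feedback inhibitor of Wnt signalling, had a log2 fold change of -0.91 and was not DE. Of 16 ERK targets tested (19 listed), 1 was higher and 0 lower (6.25% DE, median -0.15): *Spry2*, a feedback inhibitor of receptor tyrosine kinase signalling, with 25.5 and 25.8 CPM in the DAXX-rescued and 72.2 and 61.6 CPM in the H3.3-rescued libraries (log2 1.38, SE 0.17, adjusted p = 0.00228). *Cdx1*, *Ccnd1* and *Spry2* kept their calls without any 1 of the 4 rescued libraries.

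Among genes of DNA methylation and H3K9 silencing, 3 were higher and 0 lower of 26 tested (27 listed, 11.5% DE against 8.45% over all genes), with a median of 0.16. *Mphosph8*, a subunit of the HUSH silencing complex, had 67.3 and 85.1 CPM in the DAXX-rescued and 245 and 230.2 CPM in the H3.3-rescued libraries (log2 1.64, SE 0.15, adjusted p = 0.000554 from edgeR). *Mbd2*, which binds methylated DNA, and *Setdb2*, a SET domain protein, were higher by log2 1.22 and 1.15. *Mphosph8* and *Setdb2* lie in the chromosome 14 segment, where most genes were above 0. In the *Hmga* and Lin28-Igf2bp list, 0 were higher and 2 lower of 8 tested (9 listed, 25% DE, median -0.67). *Hmga2*, an architectural chromatin protein, fell from 32.5 and 42.1 to 4.51 and 7.32 CPM (log2 -2.65, SE 0.33, adjusted p = 0.00247). *Igf2bp2*, an mRNA-binding protein, fell from 137 and 177 to 58.7 and 65.8 CPM (log2 -1.33, SE 0.16, adjusted p = 0.00217). The call of *Mbd2* was lost without any 1 of the 4 rescued libraries (adjusted p between 0.0536 and 0.158). *Setdb2* lost its call without DAXX-rescued replicate 1 or H3.3-rescued replicate 1 (adjusted p = 0.0574 and 0.0734).

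The remaining lists are set against the 8.45% of all genes that were DE. Of p53 targets and cell cycle inhibitors 3 were higher and 0 lower of 18 tested (19 listed, 16.7% DE, median -0.22): *Cdkn1b*, which encodes the inhibitor p27, at 18.5 and 28.4 CPM in the DAXX-rescued and 69.1 and 56.9 CPM in the H3.3-rescued libraries (log2 1.43, SE 0.26, adjusted p = 0.00795 from edgeR), and the apoptosis genes *Pmaip1* and *Perp* (log2 2.32 and 1.93). Of matrix and adhesion genes 1 was higher and 0 lower of 24 tested (25 listed, 4.17% DE, median 0.25), and that gene was the integrin *Itgb5* (log2 1.08). Of glycolysis and hypoxia genes 1 was higher and 0 lower of 24 tested (25 listed, 4.17% DE, median -0.35), and it was *Vegfa*, an angiogenic factor (log2 1.94). None of the 10 *Hox* genes tested (28 listed, median -0.25) and none of the 6 tested genes known to vary between 129 and C57BL/6 mice (13 listed, median 0.19) was DE by edgeR. Among the genes that vary by strain, the protease gene *Ide* had a log2 fold change of -0.09, and *Glo1*, the glyoxalase gene, had 255 and 262 CPM in the DAXX-rescued and 144 and 126.29 CPM in the H3.3-rescued libraries, apart in the libraries but under 2-fold (log2 -0.94, SE 0.17, adjusted p = 0.00746), and it was DE without H3.3-rescued replicate 1 (log2 -1.04, adjusted p = 0.0483). The calls of *Pmaip1*, *Perp* and *Vegfa* were lost without any 1 of the 4 rescued libraries (adjusted p between 0.0520 and 0.229). *Cdkn1b* lost its call without DAXX-rescued replicate 1 or H3.3-rescued replicate 1 (adjusted p = 0.0688 and 0.0631) and *Itgb5* lost its call without DAXX-rescued replicate 1 or H3.3-rescued replicate 2 (adjusted p = 0.0827 and 0.0761). *Vegfa* also lost its call with library size alone (adjusted p = 0.0508).

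The knockout lines without transgenes give the same pair of backgrounds in other libraries, and their comparison asks which line differences are present without rescue. Between H3.3 KO and *Daxx*-/- mESCs 1543 genes (11.7%) were DE, 754 higher and 789 lower. With only the 4 libraries of these lines in the fit the count was 835 (412 higher, 423 lower), which keeps 809 (52.4%) of the 1543, and the overlaps below rest on the larger count. Of the 1543, 544 were also DE between the rescued lines, which is 48.7% of the rescued and 35.3% of the KO DE genes. The direction was shared by 541 of them (327 higher, 214 lower) and opposite for 3. Of the 1116 genes DE between the rescued lines, 1033 (92.6%) had the same sign in the KO pair, compared with 71.4% of all genes. Across genes, which are not independent, the log2 fold changes of the pairs had a Pearson correlation of 0.653 and a Spearman correlation of 0.573. The remaining 572 genes were DE between the rescued lines and not between the KO lines, which by itself does not show that their difference changed with rescue. Without 1 library the KO count was 2116 without *Daxx*-/- replicate 1, 1282 without *Daxx*-/- replicate 2, 945 without H3.3 KO replicate 1 and 711 without H3.3 KO replicate 2.

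**Figure D5:**
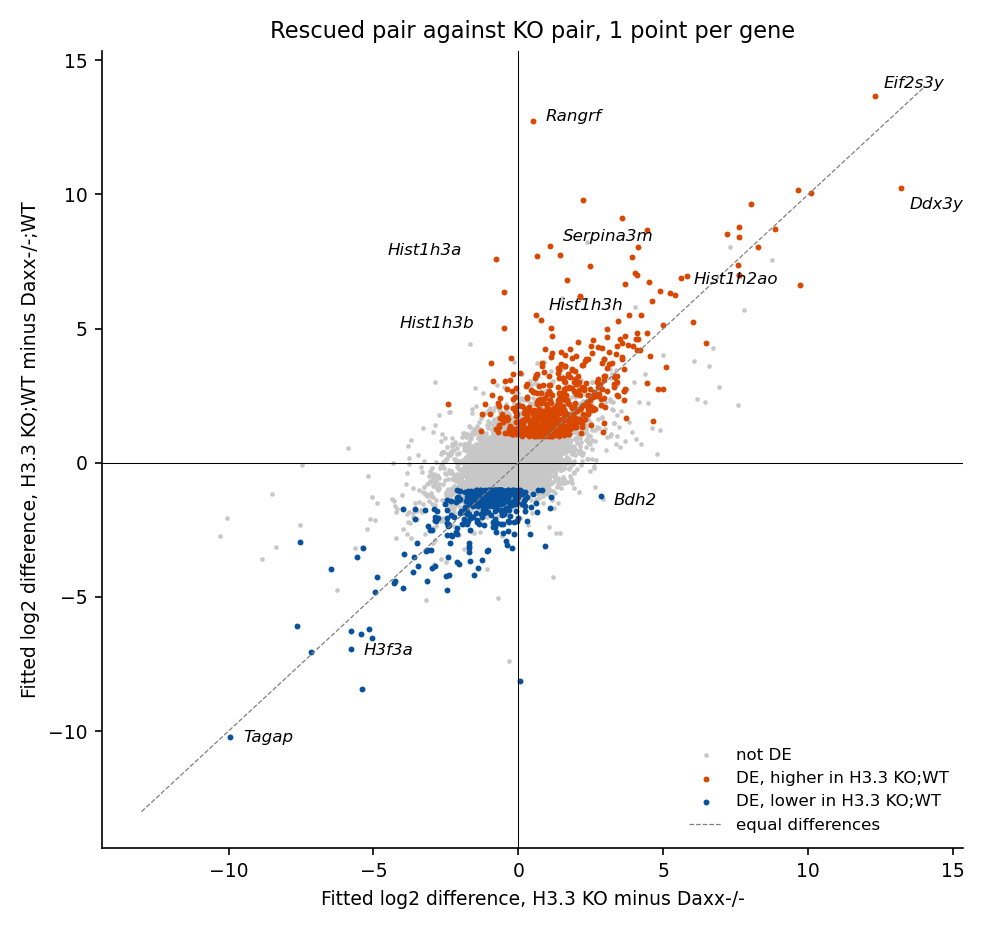
Fitted log2 fold change between the rescued lines against that between the KO lines, with 1 point for each gene tested and the genes named in the text marked. Points follow the diagonal (Pearson 0.653 across genes), with *Hist1h3a*, *Hist1h3b*, *Hist1h3h* and *Serpina3m* above it and *Bdh2* below.

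The line difference itself changed with rescue for 6 genes (0.0455%) by edgeR's interaction test, and 1839 genes had an unadjusted p under 0.05 there. *Hist1h3a* had 0.907 and 1.49 CPM in the H3.3 KO and 2.11 and 1.997 CPM in the *Daxx*-/- libraries, beside 83.96 and 90.3 CPM in the H3.3-rescued and 0.595 and 0.281 CPM in the DAXX-rescued libraries (difference 8.37, SE 0.43, adjusted p = 0.000128). *Hist1h3h* (difference 4.90, SE 0.42, adjusted p = 0.00586) and *Hist1h3b* (difference 5.51, SE 0.60, adjusted p = 0.0245) followed it, the former with 4.82 and 4.66 CPM and the latter with 0.737 and 1.12 CPM in the H3.3 KO libraries. All 3 were low in the 4 KO libraries and high in the H3.3-rescued libraries. With the L126A-I130A transgene they were high as well, with 76.9 and 71.1 CPM for *Hist1h3a*, 60.3 and 59.1 CPM for *Hist1h3h* and 14.1 and 8.92 CPM for *Hist1h3b*, and the part of transgene reads in these counts was not tested. *Serpina3m* was at 169 and 148 CPM in H3.3 KO and 93.2 and 54.7 CPM in *Daxx*-/- cells, above both rescued lines (difference 6.99, SE 0.77, adjusted p = 0.0245 as fitted, which is no fold at these counts). *Cdkn2a*, which encodes cell cycle inhibitors, had 4.70 and 6.40 CPM in H3.3 KO and 46.6 and 58.6 CPM in *Daxx*-/- cells, and 17.6 and 16.6 against 31.3 and 33.4 CPM after rescue (difference 2.33, SE 0.29, adjusted p = 0.0485). Its levels in the lines thus lay nearer to each other with the transgenes, and it was not DE between the rescued lines. *Bdh2*, a dehydrogenase, turned: it was higher in H3.3 KO (5.61 and 6.15 CPM) than in *Daxx*-/- cells (0.666 and 0.943 CPM) and lower in the H3.3-rescued (4.32 and 2.85 CPM) than in the DAXX-rescued cells (8.87 and 8.20 CPM, difference -4.11, SE 0.50, adjusted p = 0.0417). Between the rescued lines, the call of *Bdh2* was lost without any 1 of the 4 rescued libraries (adjusted p between 0.0869 and 0.222). The number of genes past the interaction test was 262 by DESeq2 and 144 with a replicate block. Leaving out a library gave 180 without *Daxx*-/- replicate 1, 5 without *Daxx*-/- replicate 2, 1 without DAXX-rescued replicate 1 or H3.3 KO replicate 1, and 2 without DAXX-rescued replicate 2, H3.3 KO replicate 2 or either H3.3-rescued replicate. *Hist1h3a* was called in all 8 of these fits. *Hist1h3h* lost its call without DAXX-rescued replicate 1, H3.3 KO replicate 1 or H3.3 KO replicate 2 (adjusted p up to 0.0949). *Hist1h3b* and *Serpina3m* kept theirs only without a *Daxx*-/- library (up to 0.207 otherwise), and *Cdkn2a* and *Bdh2* only without *Daxx*-/- replicate 1 (up to 0.323 otherwise).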

How the data were processed

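PolyA RNA-Seq of 5 mESC lines, 2 libraries each, was used, and lines were taken from the sample labels. The authors aligned reads with Bowtie to mm9 and estimated levels with RSEM, versions not given. The table they deposited is named for TPM but holds, for 20325 genes, expected counts. No further value of the study was used.

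Members and gene lists were chosen with earlier results of these data known. Rounded expected counts were scaled by median-of-ratios factors (0.936 to 1.04), and a gene entered the test if 2 or more libraries had 1 CPM or more (13201 did). One edgeR 4.0.16 quasi-likelihood fit in R 4.3.3 with a trend on abundance took all 10 libraries and had a dispersion of 0.0522 in common, 5 residual and 4.07 prior degrees of freedom. Contrasts were the rescued pair, the KO pair and their difference. The SE is the log2 fold change divided by the square root of F. Totals ran from 15463625 to 21396585, so 3 counts correspond to 0.149 to 0.202 CPM. Intervals of ratios are exact at 95%. The test of the rescued pair was also run on counts simulated from the mean levels and dispersions of the real fit.

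Named genes were the targeted genes and tested clustered H3 genes, the 12 largest rises and 12 largest falls with a mean of at least 5 CPM and no overlap of libraries, up to 4 DE members of each of 23 lists (2 by level where none was DE), and genes that changed with rescue, predicted genes left out, 84 in all. Other genes were named after their values were seen.

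Positions are from GENCODE M21 (GRCm38) by symbol, then RefSeq GRCm38.p6, for 13121 genes tested, and promoters from RefSeq. A stretch is 50 bases of an annotated transcript. Alternatives covered scaling (TMM, library size), DESeq2 1.42.0, filters, libraries in the fit, a replicate block, fold thresholds and each library left out. The fits take no replicate numbers as pairs. Python 3.11.15, numpy 2.4.6, pandas 2.3.3, scipy 1.17.1 and matplotlib 3.10.9 made tables and figures.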

Additional observations from a re-analysis of the deposited data

Results flagged for a closer look

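For 6 genes edgeR's interaction test put the line difference after rescue apart from the line difference of the KO lines, on the log2 scale and with adjusted p over all genes. The change was 8.37 for *Hist1h3a* (adjusted p = 0.000128), 6.99 for *Serpina3m* (0.0245), 5.51 for *Hist1h3b* (0.0245), 4.90 for *Hist1h3h* (0.00586), 2.33 for *Cdkn2a* (0.0485) and -4.11 for *Bdh2* (0.0417). The value of *Serpina3m* rests on 2 and 0 counts in the DAXX-rescued libraries, and its fitted change is not a fold. The cause of these changes was not tested.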

How the results depend on the processing

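Between the rescued lines 1697 genes (1040 higher) were DE when only the libraries of the compared lines were fitted. At the same adjusted p, 2336 (1244 higher, 1092 lower) were DE with no fold threshold and 378 (275, 103) at 4-fold. Leaving out 1 rescued library gave between 363 and 797 genes, 212 to 481 higher and 106 to 316 lower. In those fits the lone library of a line is assumed to vary like the other groups. For the KO pair the count was 835 with only its lines, 3130 with no fold threshold, 485 at 4-fold and between 711 and 2116 without 1 library. The genes whose line difference changed with rescue numbered 262 by DESeq2, 144 with a replicate block and between 1 and 180 without 1 library.

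The replicate block gave 1569 DE genes between the rescued lines and 1895 between the KO lines. Across genes, differences of replicate 1 minus replicate 2 correlated between -0.04 and 0.57 over the 10 pairs of lines, at 0.27 for the rescued and -0.04 for the KO lines. Of the 10 values 7 were over 0.1, and the 3 others were all for pairs with the H3.3 KO line. The labels name no shared source for a number. TMM factors gave 1117 and DESeq2 1382 for the rescued lines. The 2 alternatives chosen after seeing the data gave 1171, without the L126A-I130A line, and 901, without chromosome Y and the segments. Of the 6 genes whose line difference changed with rescue, 4 were called again with library size alone, where 6 were called. It was also 4 with only the compared lines or without the L126A-I130A line, where 5 were called each time. Of 84 named genes, all kept their side of the call with TMM, DESeq2 and the replicate block, 3 lost it with library size alone, and 29, 19, 31 and 33 lost it without DAXX-rescued replicate 1, DAXX-rescued replicate 2, H3.3-rescued replicate 1 and H3.3-rescued replicate 2. None reversed.

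With library size alone, which puts the all-gene median at 0.056 in place of 0.002, chromosome medians were -0.02 (1), 0.03 (3), 0.26 (4), -0.06 (5), -0.14 (7), -0.23 (8), 0.30 (10), 0.11 (11), 0.34 (12), 0.37 (13), 0.78 (14), -0.17 (15), -0.10 (16), 0.19 (17), 0.31 (18), -0.16 (19) and -0.11 (X). With a mean of at least 5 CPM they were -0.26 (8), 0.20 (10), -0.22 (15), 0.09 (17), -0.14 (X) and 9.97 (Y). The Y value is a median of fitted folds and no measured size, since several Y genes had 0 counts in both DAXX-rescued libraries. Without 1 library the chromosome medians ran from -0.10 to -0.02 (1), 0.18 to 0.22 (4), -0.12 to -0.05 (5), -0.28 to -0.15 (6), -0.24 to -0.16 (7), -0.10 to 0.02 (9), 0.23 to 0.25 (10), 0.26 to 0.32 (12), 0.72 to 0.79 (14), -0.25 to -0.21 (15), 0.10 to 0.15 (17), 0.23 to 0.27 (18), -0.18 to -0.16 (X) and 8.29 to 9.54 (Y). The range for Y is again of fitted folds and does not show how stable the size is. With all libraries the Y median was 9.22 as fitted. It was 4.97 with floors or count ratios in place of fitted folds where counts were at or near 0. The cause of the shifts of chromosome medians was not tested.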

Other observations

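Chromosome Y genes were not alike in the H3.3 KO line with the L126A-I130A transgene. *Ddx3y* had 255 and 194 CPM, *Uty* 74.4 and 48.8 CPM and *Eif2s3y* 80.4 and 62.6 CPM there, while *Zfy1* had 0.135 and 0.602 CPM and *Kdm5d* 0.135 and 0 CPM. In the H3.3 KO line *Zfy1* had 7.25 and 8.38 CPM and *Kdm5d* 1.59 and 1.18 CPM.

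*Rangrf* and *Gm4535* trade levels between replicates of the KO lines. In H3.3 KO cells *Rangrf* had 13.6 and 40.6 CPM and *Gm4535* 36.8 and 0.124 CPM, and in *Daxx*-/- cells *Rangrf* had 32.6 and 5.16 CPM and *Gm4535* 3.66 and 31.8 CPM. *Tagap* was at 0 in both H3.3 KO libraries and at 7.27 and 6.82 CPM in the *Daxx*-/- libraries, and *Ubd* had 5.33 and 6.09 CPM in H3.3 KO and 0 in both *Daxx*-/- libraries. Both genes were thus apart in the same way in the rescued and the KO pair.

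The sum of 11 clustered H3 genes was 178 and 164 CPM with the L126A-I130A transgene, 15.7 and 22.4 CPM in H3.3 KO and 17.7 and 13.4 CPM in *Daxx*-/- cells.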
